A study of Rattus norvegicus with 8 samples.

Results

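Interferon-stimulated genes were followed in RNA of the rat abdominal aorta after injury with iron chloride. The 32 members were chosen by symbol from a list, and all 32 were found among the 18090 genes of the deposited table. Of these, 30 passed the filter on low values (at least 1 FPKM in at least 4 of the 8 libraries), as did 11921 genes in all. FPKM is the number of sequenced fragments of a gene, scaled by the gene's length and the library's total. Zbp1 and Oasl did not pass, so they are described without a test.

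The tested vessels came from wild-type rats whose abdominal aorta was wrapped for 5 min with filter paper carrying 10% FeCl3; the salt damages the wall through the adventitia and is used to start thrombosis (4 samples). The controls were wild-type rats given 0.9% saline on the paper for the same 5 min (4 samples). PolyA RNA of the whole vessel was sequenced. Samples are described as biologically independent. The sources used here do not give strain, age, sex or the time between exposure and harvest.

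Interferons are secreted proteins that warn cells of infection or of nucleic acid out of place. Type I interferons act through the kinases JAK1 and TYK2 on a complex that holds STAT2 and IRF9 and binds a DNA motif called the interferon-stimulated response element (ISRE). The response to interferon gamma runs through the GAS motif. The induced genes encode sensors, RNA-binding proteins, GTPases and enzymes that limit viruses, and IRF7 feeds back to raise interferon production. Endothelial cells, smooth muscle cells and leukocytes all carry the receptors.

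No interferon-stimulated gene was called different after FeCl3 at the threshold used, where 0 of all 11921 tested genes were called. The log2 fold changes of the 30 tested members, FeCl3 over saline, ran from -0.44 to 3.47. Of these, 7 were at least 1, 18 lay between 0 and 1 and 5 were below 0. Rsad2, which encodes the antiviral enzyme viperin, averaged 197 ± 124 FPKM after FeCl3 and 36.6 ± 60.1 FPKM after saline (SD, n = 4 each). Irf7, the transcription factor that amplifies the response, averaged 50.1 ± 19.5 FPKM after FeCl3 and 14.3 ± 19.1 FPKM after saline (SD, n = 4 each). Stat2 and Irf9, which belong to the type I interferon complex, averaged 7.31 ± 1.68 and 7.30 ± 2.33 FPKM after FeCl3, against 8.87 ± 4.65 and 6.92 ± 2.92 FPKM after saline (SD, n = 4 each). Saline replicate 1 was the lowest library for 27 of the 32 members (34.9% of all tested genes). Saline replicate 4 was at or above the lowest FeCl3 library for 31 of 32, a share near that of all tested genes, 95.2%.

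Across all 11921 genes, limma (a moderated test on log2(FPKM + 1), two-sided, Benjamini-Hochberg adjusted) called 0 genes at an adjusted p under 0.05, which is 0.0% of those tested, and 0 of the 30 members. The smallest adjusted p of a member was 0.245, for Rsad2. At an unadjusted p under 0.05 there were 4 members higher after FeCl3, where 4.42% of all tested genes were higher, and 0 members lower, where 12.2% of all tested genes were lower. limma voom on fragments recovered from the FPKM values also called 0 members. It had 5 members higher and 0 lower at an unadjusted p under 0.05, against 4.33% and 13.1% of all tested genes. The log2 fold change was positive for 25 of 30 members, against 29.8% of all tested genes. The median of the members was 0.54, against -0.25 for all tested genes. The groups did not overlap for 0 members, where 1.06% of all tested genes lay wholly higher after FeCl3 and 8.75% wholly lower. A log2 fold change of at least 1 was found for 7 members, against 5.53% of all tested genes, and of -1 or less for 0 members, against 4.33%.

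These counts depended on saline replicates 1 and 4. Without saline replicate 1, 18 of the 30 members had a positive log2 fold change (21.8% of all tested genes), and the median was 0.08, against -0.33 for all tested genes. Without saline replicate 4, 26 members were positive (31.6% of all tested genes) with a median of 0.87, and 2 members passed the adjusted threshold, where 1.34% of all tested genes did. These were Rsad2 (log2 fold change 4.49, limma adjusted p = 0.0109) and Irf7 (3.17, limma adjusted p = 0.0307). Leaving out the control with the highest Rsad2 and Irf7 favours a call of both genes, so these passes are no independent support. With saline replicates 2 and 3 as the only controls, a choice made after seeing the data, 21 members were positive (21.7% of all tested genes) with a median of 0.29, against -0.39 for all tested genes. In that setting 0.428% of all tested genes passed the adjusted threshold, Rsad2 among them (4.48, limma adjusted p = 0.0412). With the haemoglobin share or the leukocyte level of each library as a covariate, 4 and 3 members were positive (36.7% and 20.9% of all tested genes), with medians of -0.30 and -0.68, against -0.16 and -0.36 for all tested genes. Saline replicate 4 was the only control within the FeCl3 range of either covariate. These fits therefore cannot well separate treatment from the covariates. Scaling moved the balance too. With FPKM rescaled to TPM the median of all tested genes was -0.90 and that of the members 0.02, with 16 of 30 positive, and with haemoglobin genes left out of the library total these medians were 0.01 and 0.79, with 29 of 30 positive.

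**Figure D1:**
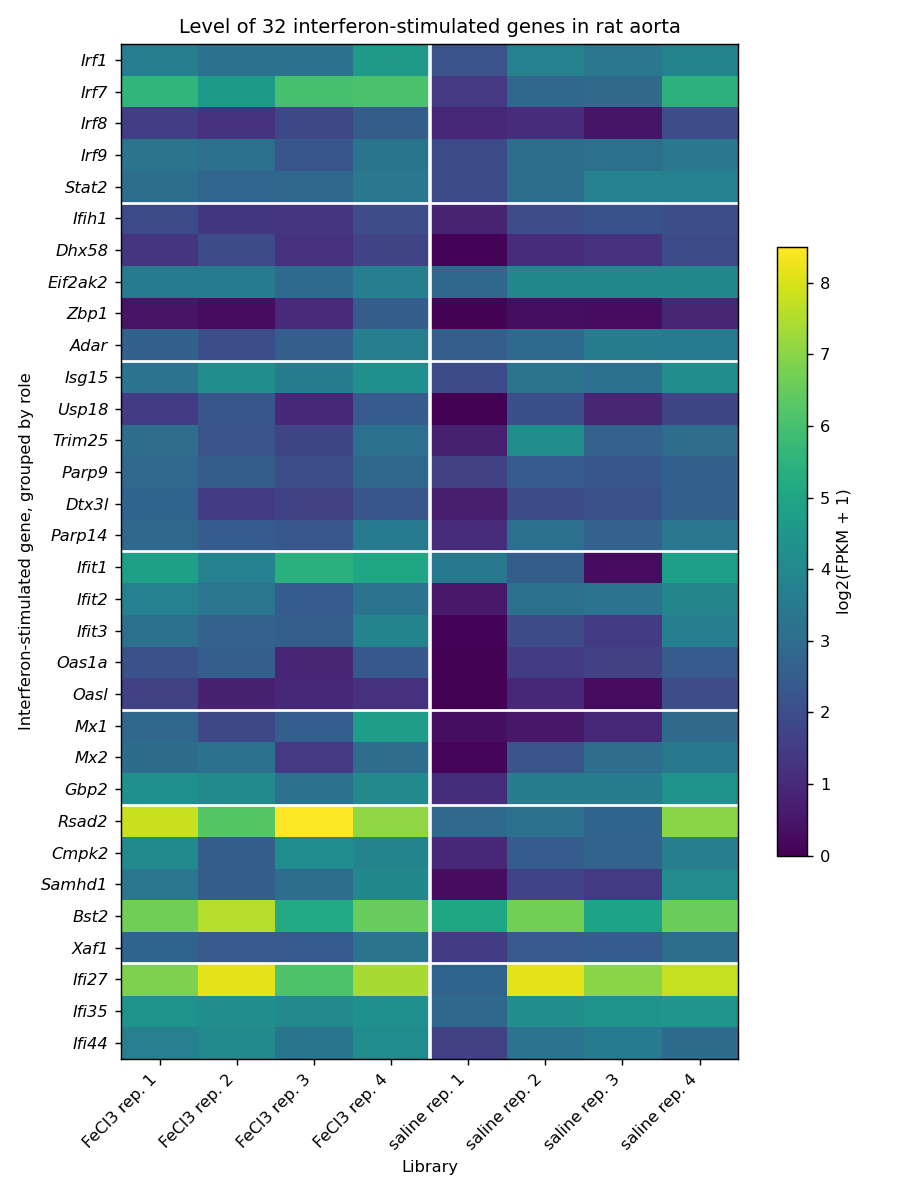
Level of each of the 32 interferon-stimulated genes as log2(FPKM + 1), by library, with the 4 FeCl3 libraries left of the white line and the 4 saline libraries right of it; rows are grouped by role. The column of saline replicate 1 is the darkest, and it holds the lowest value of 27 of the 32 genes, while saline replicate 4 resembles the FeCl3 columns in brightness.

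The libraries differed in their content of blood, wall and fat RNA, and recovered totals ranged from 24304434 to 30283292 fragments. Haemoglobin genes took 16.4% to 34.1% of fragments after FeCl3, and 1.63%, 1.30%, 1.49% and 16.5% in saline replicates 1 to 4. All 10 leukocyte markers were tested and had a positive log2 fold change, with 10 at an unadjusted p under 0.05 and 0 called. Their summed level was 401 to 916 FPKM after FeCl3, against 13.7, 63.1, 51.8 and 497 FPKM in saline replicates 1 to 4. The smooth muscle actin Acta2, which marks the media of the aorta, was present in every library at 1304 to 4260 FPKM after FeCl3 and 1790 to 10404 FPKM after saline, the highest in saline replicate 1. Summed markers of endothelium were 214 to 344 FPKM after FeCl3 and 27.4 to 333 FPKM after saline, the lowest in saline replicate 1. Adipocyte markers summed to 492 to 12904 FPKM after FeCl3. In saline replicates 1 to 4 they summed to 14.1, 9808, 402 and 2132 FPKM. Platelet and megakaryocyte markers summed to 1007 to 2573 FPKM after FeCl3. In saline replicates 1 to 4 they summed to 37.9, 44.3, 124 and 1723 FPKM. In bulk RNA, fewer cells of a type and less RNA per cell cannot be told apart. The part of leukocyte, red cell, platelet, fat and wall content in the results on interferon-stimulated genes was not tested.

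The mean level of the 32 members, as the average of log2(FPKM + 1), was 3.39, 3.09, 2.94 and 3.74 in FeCl3 replicates 1 to 4, against 1.39, 2.80, 2.57 and 3.61 in saline replicates 1 to 4. Saline replicate 4 thus lay above all FeCl3 libraries but replicate 4, and saline replicate 1 lay below all others. Saline replicate 1 had the lowest value of 25 of the 30 tested members, where this library was lowest for 34.9% of all tested genes. FeCl3 replicate 4 had the highest value of 11 of the 30, where it was highest for 9.82% of all tested genes. Saline replicate 4 exceeded the other 3 controls for 21 of the 30 (15.6% of all tested genes) and exceeded every FeCl3 library for 9 of the 30 (31.5% of all tested genes).

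**Figure D2:**
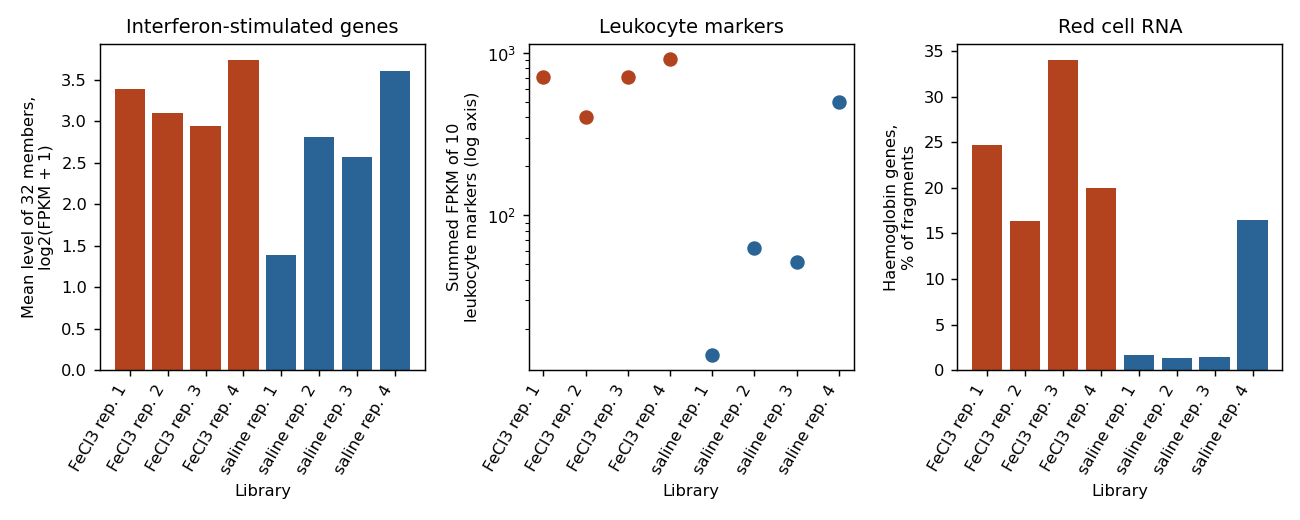
By library, the mean log2(FPKM + 1) of the 32 members (left, bars from 0), the summed FPKM of 10 leukocyte markers (middle, log axis) and the haemoglobin share of fragments in percent (right, bars from 0), with FeCl3 libraries in red and saline libraries in blue. Saline replicate 4 stands with the FeCl3 libraries in each panel, at 3.61, 497 FPKM and 16.5%, and saline replicate 1 is lowest in the left and middle panels, at 1.39 and 13.7 FPKM.

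The DNA around the start sites was searched for the motifs of the interferon factors. RefSeq windows (assembly GRCr8, 250 bases before to 50 after the first-listed start site) matched 24 of 32 members by symbol. Dhx58, Zbp1, Adar, Isg15, Usp18, Ifit1, Ifit2 and Mx2 had no match. The ISRE core, searched as GAAA, any 2 bases and GAAA on either strand, was found in 13 of the 24 (54.2%), against 3.77% of 27457 promoters of the same length. A match lay wholly before the start site in 12 of these members. The GAS core TTCNNNGAA, which reads the same on both strands, was found in 7 of 24 (29.2%), against 8.68% of all promoters. The 13 members with an ISRE core had a median log2 fold change of 0.68, from -0.24 to 3.47, and the 10 tested members without one had a median of 0.35, from -0.14 to 1.79. A match describes these letters in these windows and shows no binding.

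Shown next are the matches of the 8 most abundant members with an ISRE core wholly before the start site, as the stretch of promoter around them. Each is written along the gene's own strand, with the ISRE core in capitals, so that a core on the other strand appears as TTTC followed by any 2 bases and TTTC. Bst2 has a pair of overlapping matches, and Ifi27 has 2 that lie apart.
Ifi27, chr6:128355118-128355262, plus strand: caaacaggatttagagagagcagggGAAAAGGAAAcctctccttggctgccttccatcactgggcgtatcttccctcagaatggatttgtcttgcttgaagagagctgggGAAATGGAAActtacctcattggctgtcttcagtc
Rsad2, chr6:48788233-48788292, minus strand: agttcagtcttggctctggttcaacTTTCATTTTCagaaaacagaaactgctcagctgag
Bst2, chr16:18255058-18255123, minus strand: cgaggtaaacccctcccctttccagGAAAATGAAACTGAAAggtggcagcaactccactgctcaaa
Irf7, chr1:205800058-205800117, minus strand: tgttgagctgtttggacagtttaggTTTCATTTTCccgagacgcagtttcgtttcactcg
Gbp2, chr2:234005671-234005726, plus strand: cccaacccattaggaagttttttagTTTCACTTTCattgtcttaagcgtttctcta
Eif2ak2, chr6:21941113-21941153, plus strand: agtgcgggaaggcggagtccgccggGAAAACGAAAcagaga
Ifi44, chr2:243303841-243303891, minus strand: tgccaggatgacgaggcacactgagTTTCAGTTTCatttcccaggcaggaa
Parp14, chr11:78408033-78408092, plus strand: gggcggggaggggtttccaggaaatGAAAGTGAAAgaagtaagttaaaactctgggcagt
The cores begin 147 bases before the start site in Rsad2, 69 bases before it in Irf7 and 16 bases before it in Eif2ak2. Rsad2 and Irf7 share the same 10 letters, and the first core of Bst2 is the same run on the other strand. Their log2 fold changes were 3.47, 2.41 and 0.68, and that of Eif2ak2, also with a core, was -0.24.

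Among the transcription factors, Irf7 differed most between the groups in mean. Irf7 measured 47.1, 23.6, 64.4 and 65.1 FPKM in FeCl3 replicates 1 to 4, against 1.63, 6.40, 6.59 and 42.7 FPKM in saline replicates 1 to 4. All FeCl3 libraries lay above 3 of the controls, and saline replicate 4 lay above FeCl3 replicate 2. Irf7 stood at 2.41 ± 0.77 SE in log2 fold change (adjusted p = 0.248, limma). Without saline replicate 1 it was 1.82, with the haemoglobin covariate -0.24 and with the leukocyte covariate -0.23.

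Irf8, a factor of myeloid and B cells, measured 2.02, 1.33, 2.62 and 4.69 FPKM in FeCl3 replicates 1 to 4, against 0.919, 1.10, 0.387 and 3.06 FPKM in saline replicates 1 to 4. The 3 controls other than replicate 4 lay below every FeCl3 library, as they did for 7 of the 30 members (5.65% of all tested genes). Irf8 stood at 0.67 ± 0.39 SE in log2 fold change (adjusted p = 0.401, limma), and 0.43 without FeCl3 replicate 4. Irf1, an early target of interferon gamma, measured 11.8, 8.11, 8.31 and 23.2 FPKM after FeCl3, against 3.55, 12.2, 9.52 and 13.2 FPKM after saline, in the order of replicates. Its groups overlapped widely, with 1 high FeCl3 library and 1 low control. Irf1 stood at 0.39 ± 0.45 SE in log2 fold change (adjusted p = 0.665, limma), 0.023 without saline replicate 1, and -0.28 with FPKM rescaled to TPM.

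Irf9 and Stat2, both of the type I interferon complex, were at similar levels in both groups. Irf9 measured 8.56, 7.87, 3.87 and 8.90 FPKM in FeCl3 replicates 1 to 4, against 2.79, 7.46, 7.74 and 9.68 FPKM in saline replicates 1 to 4. Stat2 measured 7.43, 5.85, 6.35 and 9.63 FPKM after FeCl3, against 2.94, 7.41, 12.8 and 12.4 FPKM after saline, in the order of replicates. Saline replicate 1 was the lowest library for both genes, and the highest library was a control for both. Their log2 fold changes were 0.11 ± 0.38 SE for Irf9 and -0.11 ± 0.40 SE for Stat2 (adjusted p = 0.893 and 0.903, limma). Without saline replicate 1 these were -0.21 and -0.50.

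**Figure D3:**
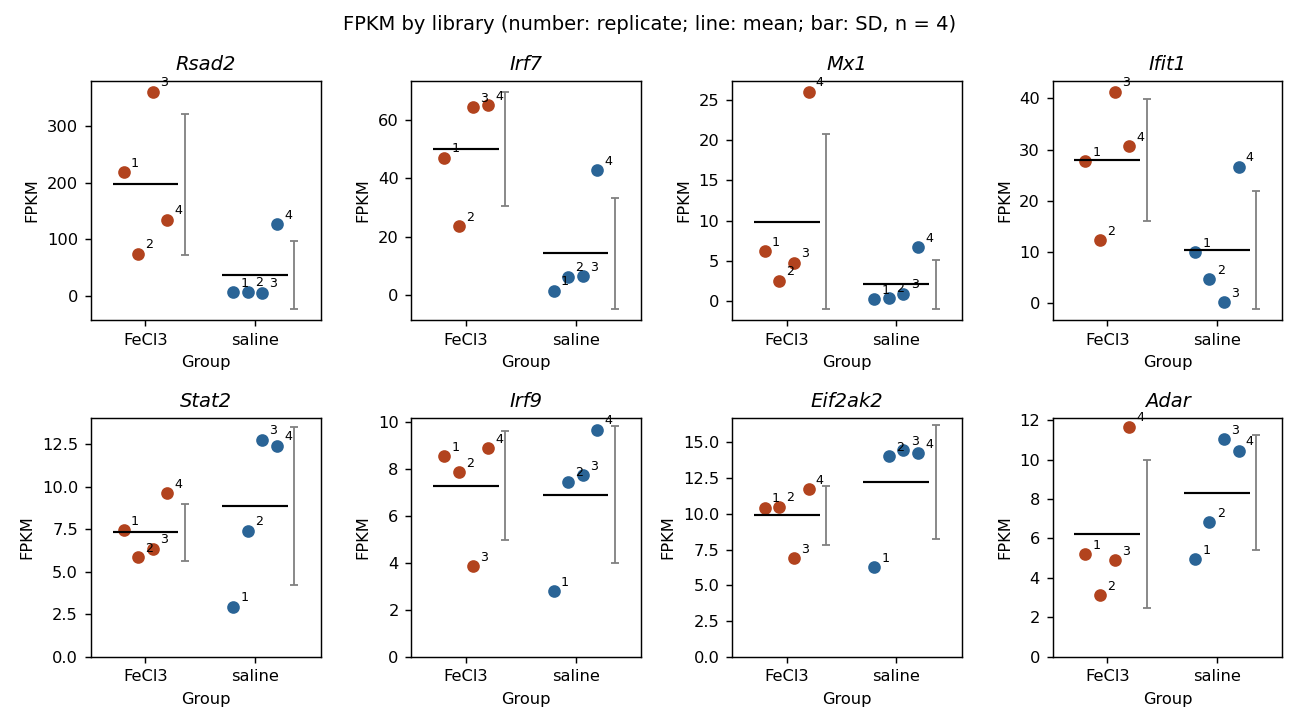
FPKM of 8 members by library (points, labelled with the replicate number; horizontal line, mean; grey bar, mean ± SD, n = 4), with FeCl3 left and saline right in each panel and separate axes. In the upper row (Rsad2, Irf7, Mx1 and Ifit1) saline replicate 4 lies among the FeCl3 libraries, at 127, 42.7, 6.69 and 26.6 FPKM. In the lower row (Stat2, Irf9, Eif2ak2 and Adar) the groups overlap and saline replicate 1 is lowest or near it. The overlap of Eif2ak2 rests on saline replicate 1 alone, at 6.27 FPKM, against 14.0 to 14.4 FPKM in the other controls.

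The enzymes among the antiviral effectors held the member with the largest fold change. Rsad2 measured 219, 74.9, 361 and 135 FPKM in FeCl3 replicates 1 to 4, against 6.49, 7.62, 5.66 and 127 FPKM in saline replicates 1 to 4. Saline replicates 1 to 3 were close together and far below every FeCl3 library, while saline replicate 4 exceeded FeCl3 replicate 2. Rsad2 stood at 3.47 ± 0.95 SE in log2 fold change (adjusted p = 0.245, limma), with 7936 to 35988 recovered fragments after FeCl3 and 658 to 12412 after saline, so counting error was small beside the spread between libraries. With the haemoglobin share of each library as a covariate it was -0.30, and with the leukocyte level as a covariate it was 0.64. Both covariates overlap with the groups.

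Cmpk2, a nucleotide kinase whose gene lies next to Rsad2 in RefSeq order, measured 15.6, 4.70, 16.5 and 13.4 FPKM in FeCl3 replicates 1 to 4, against 0.952, 4.57, 5.52 and 11.6 FPKM in saline replicates 1 to 4. FeCl3 replicate 2 lay within the controls and the other 3 above them. Cmpk2 stood at 1.19 ± 0.58 SE in log2 fold change (adjusted p = 0.331, limma), and 0.69 without saline replicate 1. Samhd1, which depletes the nucleotides that viruses copy their DNA from, measured 9.68, 4.64, 7.39 and 14.8 FPKM after FeCl3, against 0.213, 2.31, 1.69 and 16.0 FPKM after saline, in the order of replicates. The highest library was a control, saline replicate 4, and the other 3 controls were below all FeCl3 libraries. Samhd1 stood at 1.36 ± 0.73 SE in log2 fold change (adjusted p = 0.367, limma), 0.83 without saline replicate 1 and 2.10 without saline replicate 4.

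Bst2, the membrane protein tetherin, which holds budding viruses on the cell, measured 101, 187, 35.5 and 91.8 FPKM in FeCl3 replicates 1 to 4, against 31.0, 104, 29.4 and 94.4 FPKM in saline replicates 1 to 4. The groups overlapped over most of their range. Bst2 stood at 0.68 ± 0.60 SE in log2 fold change (adjusted p = 0.566, limma), and -0.04 with FPKM rescaled to TPM. Xaf1, a partner of apoptosis inhibitors, lay between 4.14 and 8.68 FPKM after FeCl3 and between 1.81 and 7.47 FPKM after saline (log2 fold change 0.34, limma adjusted p = 0.640, and -0.26 with FPKM rescaled to TPM).

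The IFIT proteins bind foreign RNA, and the OAS enzymes make oligoadenylates that activate an RNase. All 4 tested genes of these families had a positive log2 fold change, but this depended on the setting. With the haemoglobin covariate Ifit1, Ifit2, Ifit3 and Oas1a were at -0.55, -0.54, -0.65 and -0.15. With the leukocyte covariate they were at 0.61, -1.29, -1.01 and -0.67, in the same order. Ifit2 was at -0.05 with FPKM rescaled to TPM. Ifit1 measured 27.7, 12.3, 41.3 and 30.6 FPKM in FeCl3 replicates 1 to 4, against 9.94, 4.64, 0.210 and 26.6 FPKM in saline replicates 1 to 4. The order of the controls differed from that of most members, as saline replicate 3 was lowest, with 13 fragments. Ifit1 stood at 1.99 ± 0.86 SE in log2 fold change (adjusted p = 0.299, limma), 1.16 without saline replicate 3, and its paralog Ifit1bl, with which reads could be shared, measured 1.87 to 3.56 FPKM after FeCl3 and 0.345 to 4.07 FPKM after saline.

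Ifit3 measured 7.87, 5.36, 4.94 and 13.1 FPKM in FeCl3 replicates 1 to 4, against 0.0647, 2.96, 1.74 and 11.8 FPKM in saline replicates 1 to 4. The first 3 controls lay below every FeCl3 library and replicate 4 among them. Ifit3 stood at 1.25 ± 0.68 SE in log2 fold change (adjusted p = 0.372, limma), and 0.68 without saline replicate 1. Ifit2 measured 12.3, 9.17, 4.61 and 8.46 FPKM after FeCl3, against 0.503, 7.87, 8.42 and 13.7 FPKM after saline, in the order of replicates. Only saline replicate 1 stood apart in Ifit2, and the log2 fold change of 0.49 ± 0.66 SE (adjusted p = 0.716, limma) was -0.22 without that library.

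Oas1a measured 0.901 to 4.89 FPKM after FeCl3, against 0, 1.83, 2.09 and 4.26 FPKM in saline replicates 1 to 4. At the depth of saline replicate 1 a count of 0 allows up to 0.0677 FPKM of Oas1a (3 fragments, covering counting error only). Its log2 fold change was 0.60 (adjusted p = 0.577, limma), and 0.14 without saline replicate 1. Oasl, an OAS-like protein under the filter on low values, measured 2.19, 0.701, 0.941 and 1.31 FPKM in FeCl3 replicates 1 to 4, against 0.0167, 0.977, 0.219 and 3.03 FPKM in saline replicates 1 to 4. Saline replicate 4 was its highest library and saline replicate 1, with 1 fragment, its lowest.

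The antiviral GTPases differed among themselves. Mx1 measured 6.21, 2.57, 4.78 and 26.0 FPKM in FeCl3 replicates 1 to 4, against 0.288, 0.470, 0.943 and 6.69 FPKM in saline replicates 1 to 4. FeCl3 replicate 4 was far above the rest, the first 3 controls were below all FeCl3 libraries, and saline replicate 4 came second among the 8 libraries. Mx1 stood at 1.79 ± 0.73 SE in log2 fold change (adjusted p = 0.281, limma). Mx2 measured 7.08, 7.91, 1.63 and 7.16 FPKM after FeCl3, against 0.0874, 3.49, 7.30 and 9.71 FPKM after saline, in the order of replicates. Mx2 had 1 low library in each group, FeCl3 replicate 3 and saline replicate 1, and its highest value in a control. Mx2 stood at 0.46 ± 0.72 SE in log2 fold change (adjusted p = 0.760, limma), and -0.23 without saline replicate 1.

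Gbp2, a guanylate-binding protein induced strongly by interferon gamma, measured 18.4, 15.6, 8.18 and 15.1 FPKM in FeCl3 replicates 1 to 4, against 1.19, 11.2, 10.8 and 19.1 FPKM in saline replicates 1 to 4. Saline replicate 1 was the lowest library, and the highest was saline replicate 4. Gbp2 stood at 0.73 ± 0.63 SE in log2 fold change (adjusted p = 0.564, limma), and 0.05 without saline replicate 1.

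Of the 5 members grouped as nucleic acid sensors and kinases, Adar among them, 4 were tested and Zbp1 was not. Of the 4 tested, 1 had a positive log2 fold change (29.8% of all tested genes). Their median was -0.17, against -0.25 for all tested genes. Ifih1, which encodes the RNA sensor MDA5, measured 2.78, 1.62, 1.5 and 2.98 FPKM in FeCl3 replicates 1 to 4, against 0.751, 3.06, 3.41 and 3.09 FPKM in saline replicates 1 to 4. The FeCl3 libraries lay below 3 of the controls and above saline replicate 1. Ifih1 stood at -0.09 ± 0.35 SE in log2 fold change (adjusted p = 0.902, limma), and 0.12 with haemoglobin genes left out of the library total. Eif2ak2, the RNA-activated kinase PKR, showed the same order. It measured 10.4, 10.5, 6.90 and 11.7 FPKM in FeCl3 replicates 1 to 4. The controls had 6.27, 14.0, 14.4 and 14.2 FPKM in saline replicates 1 to 4. Eif2ak2 stood at -0.24 ± 0.30 SE in log2 fold change (adjusted p = 0.694, limma), and 0.05 with haemoglobin genes left out of the library total. Without saline replicate 1 the FeCl3 values of Ifih1 and Eif2ak2 lay wholly below the controls, as did 15.5% of all tested genes.

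Adar, which edits double-stranded RNA and so hides it from the sensors, measured 5.21, 3.12, 4.91 and 11.7 FPKM in FeCl3 replicates 1 to 4, against 4.94, 6.81, 11.0 and 10.5 FPKM in saline replicates 1 to 4. The highest value belonged to FeCl3 replicate 4 and the lowest to FeCl3 replicate 2. Adar had the lowest log2 fold change of the 30 members, -0.44 ± 0.38 SE (adjusted p = 0.568, limma). Dhx58, the sensor LGP2, stood at 0.48 ± 0.39 SE in log2 fold change (adjusted p = 0.537, limma), 0.14 without saline replicate 1, with 1.32 to 2.85 FPKM after FeCl3 and 0.0522 to 2.80 FPKM after saline. Zbp1, a sensor of Z-form nucleic acid that can start necroptosis, was under the filter. It measured 0.36, 0.23, 1.07 and 4.64 FPKM in FeCl3 replicates 1 to 4, against 0.0390, 0.243, 0.223 and 0.886 FPKM in saline replicates 1 to 4, and FeCl3 replicate 4 was the highest as for Mx1.

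Among proteins that tag or untag others, Isg15 and Usp18 are the best-known pair. Isg15, a ubiquitin-like tag, measured 8.45, 17.5, 11.0 and 18.4 FPKM in FeCl3 replicates 1 to 4, against 2.79, 8.69, 7.58 and 17.0 FPKM in saline replicates 1 to 4. Saline replicates 2 and 3 reached FeCl3 replicate 1 or nearly so, and saline replicate 4 came close to the highest FeCl3 library. Isg15 stood at 0.71 ± 0.47 SE in log2 fold change (adjusted p = 0.448, limma), and 0.31 without saline replicate 1. Usp18, which removes that tag and limits interferon signalling, measured 1.77, 3.85, 0.912 and 4.37 FPKM after FeCl3, against 0, 3.19, 0.837 and 2.44 FPKM after saline, in the order of replicates. The groups overlapped, and the 0 of saline replicate 1 allows up to 0.0542 FPKM (3 fragments). Usp18 stood at 0.60 ± 0.52 SE in log2 fold change (adjusted p = 0.562, limma), and 0.20 without saline replicate 1.

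Parp14, an ADP-ribosyltransferase, measured 6.09, 4.47, 3.93 and 9.95 FPKM in FeCl3 replicates 1 to 4, against 1.10, 7.66, 5.39 and 9.68 FPKM in saline replicates 1 to 4. Its values were alike in both groups apart from saline replicate 1. Parp14 stood at 0.19 ± 0.51 SE in log2 fold change (adjusted p = 0.868, limma), and -0.40 with FPKM rescaled to TPM. Its neighbours Parp9 and Dtx3l, whose proteins form a ubiquitin ligase, had log2 fold changes of 0.31 and 0.20 (adjusted p = 0.601 and 0.831, limma), and -0.30 and -0.33 with FPKM rescaled to TPM. Trim25, a ubiquitin ligase that acts on the sensor RIG-I, measured 7.19, 3.57, 2.44 and 7.61 FPKM in FeCl3 replicates 1 to 4, against 0.675, 17.8, 5.42 and 7.14 FPKM in saline replicates 1 to 4. Its controls held both the highest and the lowest library, and Trim25 stood at -0.14 ± 0.68 SE in log2 fold change (adjusted p = 0.926, limma), and 0.12 with haemoglobin genes left out of the library total.

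Ifi27, a small mitochondrial protein and a much used marker of type I interferon, had the highest mean level of all members. It measured 114, 282, 69.4 and 166 FPKM in FeCl3 replicates 1 to 4, against 5.69, 282, 127 and 213 FPKM in saline replicates 1 to 4. The highest FeCl3 library and the highest control were level, and saline replicate 1 was the only library under 69.4 FPKM. Ifi27 stood at 0.72 ± 1.10 SE in log2 fold change (adjusted p = 0.752, limma), and -0.50 without saline replicate 1. Ifi44 measured 12.0, 15.5, 8.95 and 16.6 FPKM in FeCl3 replicates 1 to 4, against 2.16, 8.54, 10.6 and 7.11 FPKM in saline replicates 1 to 4. Saline replicate 4 was not raised among the controls for Ifi44, and the groups overlapped by 1 control, saline replicate 3, above 1 FeCl3 library, replicate 3. Ifi44 stood at 0.93 ± 0.41 SE in log2 fold change (adjusted p = 0.301, limma), and 0.53 without saline replicate 1. Ifi35 lay between 15.1 and 19.0 FPKM after FeCl3, against 6.15, 17.4, 19.6 and 20.7 FPKM in saline replicates 1 to 4 (log2 fold change 0.24, limma adjusted p = 0.746, and -0.46 with FPKM rescaled to TPM).

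**Figure D4:**
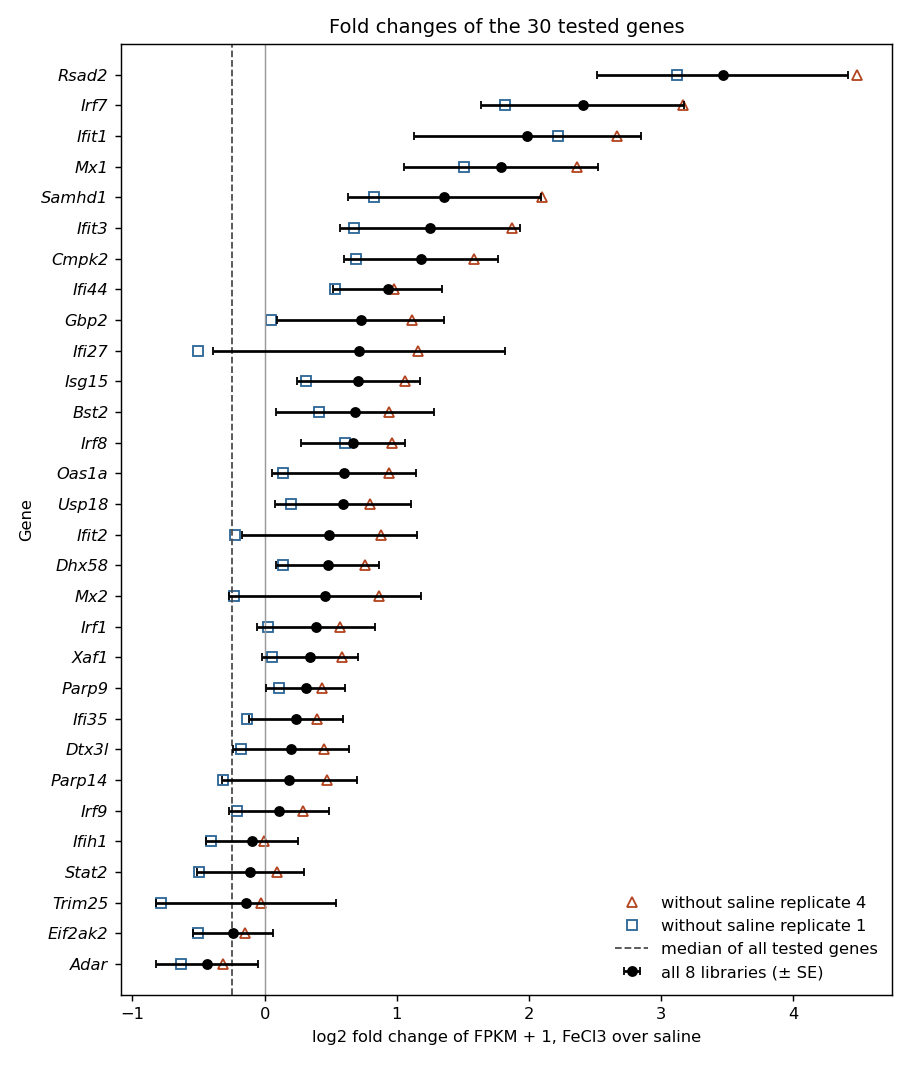
Log2 fold change of FPKM + 1, FeCl3 over saline, of the 30 tested members with all 8 libraries (black points, ± SE), without saline replicate 4 (red triangles) and without saline replicate 1 (blue squares); the dashed line is the median of all tested genes, -0.25. Rsad2 lies highest at 3.47 and Adar lowest at -0.44, and without saline replicate 1 the squares of 12 of the 30 members are below 0.

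Of the 12 genes on the ligand list, 4 were found by symbol among the genes of the deposited table. Ifna2, Ifna4, Ifna5, Ifnb1, Ifne, Ifnk, Ifnl1 and Ifnl3 were not found. Of the interferon genes, only Ifna1 and Ifng could thus be analysed here. Ifna1, a type I interferon, was at most 0.0586 FPKM after FeCl3 and 0.0401 FPKM after saline. Ifng, the gene of interferon gamma, was at 0.0719 FPKM in FeCl3 replicate 2 and listed at 0 in the other 7 libraries. The cytokine Il15 was the 1 gene of the ligand list past the filter, at a log2 fold change of 0.20 (adjusted p = 0.656, limma). Summed over 8 markers of plasmacytoid dendritic cells, which make much type I interferon, levels were 15.5 to 20.6 FPKM after FeCl3 and 11.5 to 20.5 FPKM after saline. Of 4 tested, 2 had a positive log2 fold change, from -0.27 to 1.45 over the 4, and 1 was higher at an unadjusted p under 0.05. This list holds Irf8, which is also a member. In saline replicate 1 its sum was 11.5 FPKM, where the 10 leukocyte markers summed to 13.7 FPKM. The sum is therefore not read as the content of plasmacytoid dendritic cells. Their defining marker Siglech was at 0.117 to 0.453 FPKM after FeCl3 and 0 to 0.285 FPKM after saline.

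The lists of other genes of the pathway are read against 29.8% of all tested genes positive, 4.42% higher and 12.2% lower at an unadjusted p under 0.05, and a median of -0.25. Receptors and JAK-STAT genes were spread around 0, with 6 of 11 tested positive and a median log2 fold change of 0.02, which was -0.22 without saline replicate 1. In this list 0 genes were higher and 1 was lower at an unadjusted p under 0.05, and 0 passed the adjusted threshold. Stat3, which also serves other cytokines, measured 15.3 to 26.0 FPKM after FeCl3, against 25.1 to 64.8 FPKM after saline. All but 1 FeCl3 library lay below every control, at -0.88 ± 0.33 SE in log2 fold change (adjusted p = 0.262, limma). Stat4, a factor of T and NK cells, was at 1.08 in log2 fold change (adjusted p = 0.372, limma).

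Of the other sensors, adaptors and kinases, 7 of 13 tested were positive with a median of 0.13 (-0.095 without saline replicate 1), with 1 higher and 0 lower at an unadjusted p under 0.05. Tlr7, a sensor of single-stranded RNA in immune cells, measured 3.07, 2.28, 1.08 and 1.84 FPKM in FeCl3 replicates 1 to 4, against 0.0530, 0.264, 0.134 and 2.31 FPKM in saline replicates 1 to 4. Its controls split as those of Rsad2 did, with replicate 4 among the FeCl3 libraries, and Tlr7 stood at 0.99 ± 0.40 SE in log2 fold change (adjusted p = 0.280, limma). Sting1, the adaptor of DNA sensing, and Irf5 had log2 fold changes of 1.28 and 0.96 (adjusted p = 0.349 and 0.323, limma). The RNA sensor RIG-I, listed as Ddx58, was at 0.14 (adjusted p = 0.873, limma).

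Feedback inhibitors had a median log2 fold change of -0.02 (0.042 without saline replicate 1), with 5 of 10 positive and 1 gene in each direction at an unadjusted p under 0.05. Ptpn11, a phosphatase that acts in many pathways, measured 23.6, 25.6, 22.9 and 26.2 FPKM in FeCl3 replicates 1 to 4, against 59.2, 41.3, 47.3 and 37.1 FPKM in saline replicates 1 to 4. Its groups did not overlap, and it stood at -0.86 ± 0.21 SE in log2 fold change (adjusted p = 0.245, limma). The related phosphatase of blood cells, Ptpn6, was at 1.97 ± 0.74 SE (adjusted p = 0.263, limma), and Socs1 and Pias1 at 0.41 and -0.37 (adjusted p = 0.629 and 0.465, limma).

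Genes induced by interferon gamma had a median log2 fold change of 0.75, with 19 of 20 tested positive, 5 higher and 0 lower at an unadjusted p under 0.05, and 0 past the adjusted threshold. Their median was 0.32 without saline replicate 1, 0.12 with the haemoglobin covariate and -0.26 with the leukocyte covariate. Cd74, the invariant chain of antigen presentation, measured 220, 116, 168 and 251 FPKM in FeCl3 replicates 1 to 4, against 13.6, 69.5, 27.1 and 159 FPKM in saline replicates 1 to 4. Saline replicate 4 again lay within the FeCl3 range, and Cd74 stood at 1.97 ± 0.68 SE in log2 fold change (adjusted p = 0.258, limma). Fcgr1a and Psmb9, an antibody receptor and a subunit of the immunoproteasome, were at 1.58 and 1.22 (adjusted p = 0.278 and 0.286, limma). The chemokine Cxcl10, a common readout of the response, was under the filter with 0.411 to 1.06 FPKM after FeCl3 and 0 to 1.15 FPKM after saline.

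Further interferon-stimulated genes outside the members had a median log2 fold change of 0.18, with 27 of 44 tested positive, 3 higher and 2 lower at an unadjusted p under 0.05. Their median was -0.075 without saline replicate 1, 0.018 with the haemoglobin covariate and -0.44 with the leukocyte covariate. Tor3a measured 2.30, 1.56, 1.85 and 2.04 FPKM in FeCl3 replicates 1 to 4, against 2.76, 4.27, 6.40 and 4.08 FPKM in saline replicates 1 to 4. Tor3a did not overlap between the groups, at -0.84 ± 0.25 SE in log2 fold change (adjusted p = 0.245, limma). Znfx1 was at -0.73 and Slfn3 at 1.10 (adjusted p = 0.264 and 0.260, limma).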

How the data were processed

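RNA of 8 rat abdominal aortas, 4 after FeCl3 and 4 after saline, was profiled from polyA libraries. The authors deposited 1 FPKM value per gene and library; fastp, HISAT2, HTSeq and the rat build mRatBN7.2 are named in the submitters' processing notes, with versions, annotation and gene lengths not given in the sources used here. Columns were matched to samples by title, leaving 0 value columns unmapped.

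For genes with at least 1 FPKM in at least 4 libraries, log2(FPKM + 1) went into limma 3.58.1 (R 4.3.3; trend, two-sided), with Benjamini-Hochberg adjustment over 11921 genes and a threshold of 0.05. Fold changes on this scale understate the change of low genes. Samples are called independent with no further detail, so p-values measure the spread between these samples. Library totals and gene lengths were recovered from the steps of 1 fragment in the FPKM values, whole for 100% of genes within a tolerance of 0.02; 2 genes, Hbb among them, needed their length doubled. Recovered fragments reached at least 99.95% of each total. No pair of libraries was a duplicate, as at most 1.31% of genes had equal fragments in any of 28 pairs. Both steps were tested on simulated data.

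The members and lists were chosen with earlier results of these data known. Value by library was given for 20 members, for those with the 3 largest and the 3 smallest log2 fold changes and for any whose groups did not overlap; Ifit3, Ifi44 and Cmpk2 were added after their values were seen. Of other lists, up to 3 tested genes with the smallest p and a few fixed genes were named. One result is not reported here. Alternatives were pseudocounts of 0.1 and 0.01, filters, scalings, limma without trend, robust limma, array weights, voom, covariates and each library left out. Python 3.11.15 and matplotlib 3.10.9 made the figures.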

Additional observations from a re-analysis of the deposited data

Results flagged for a closer look

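In 6 of 64 groups of 4 values (32 members, FeCl3 and saline), 1 library stood far from the other 3 on the log2(FPKM + 1) scale by Dixon's criterion, which chance meets in about 1 of 20 groups. Rsad2 was at 127 FPKM in saline replicate 4, against 5.66 to 7.62 FPKM in the other controls. Saline replicate 1 was low for 3 members. It had 0.751 FPKM of Ifih1, against 3.06 to 3.41 FPKM in the other controls, 6.27 FPKM of Eif2ak2, against 14.0 to 14.4 FPKM, and 6.15 FPKM of Ifi35, against 17.4 to 20.7 FPKM. FeCl3 replicate 3 was low for 2 members, with 3.87 FPKM of Irf9, against 7.87 to 8.90 FPKM in the other FeCl3 libraries, and 1.63 FPKM of Mx2, against 7.08 to 7.91 FPKM. No explanation of these values was tested.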

How the results depend on the processing

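With 4 libraries a group, the controls ranged from 1.30% to 16.5% of fragments in haemoglobin genes, and members near 0 in saline replicate 1 rest on few fragments. No paired analysis was possible because the labels give the groups fewer than 2 shared numbers. limma called 3288 of all tested genes with FPKM rescaled to TPM, 51 with only saline replicates 2 and 3 for controls (the 2 controls), and 0 to 160 with a library left out, the 160 without saline replicate 4; every other alternative called 0. At an unadjusted p under 0.05, 10 members were higher with median-of-ratios scaling (8.93% of all tested genes higher) and 8 with quantile normalization (8.30%). There were 7 higher with the 2 controls (4.51%), 2 higher with array weights (2.22%) and 2 higher without a filter (3.44%). With the haemoglobin covariate there were 0, where 0.0923% of all tested genes were higher and 0.914% lower. With the leukocyte covariate 3 were lower (Stat2, Ifit3 and Samhd1), where 3.5% of all tested genes were. TPM gave 2 higher and 2 lower (Eif2ak2 and Adar), where 1.88% of all tested genes were higher and 48.4% lower. With a library left out there were 2 to 9, all higher. These were 2 without FeCl3 replicate 1 (3.49%) or 4 (2.81%), and 9 without saline replicate 4 (6.24%). Members without overlap numbered 1 higher with median-of-ratios scaling (Ifi44; 4.24% of all tested genes) and with haemoglobin left out of the total (4.20%), 2 higher with quantile normalization (3.64%), 9 with the 2 controls, 7 higher (5.95%) and 2 lower (25.3%), and 0 to 7 with a library left out: 4 higher without FeCl3 replicate 2 (2.58%), 1 higher without FeCl3 replicate 3 (2.52%) or saline replicate 3 (1.26%), 2 lower without saline replicate 1 (15.5%) and 7 higher without saline replicate 4 (5.65%). Positive members numbered 13 of 16 tested under the strictest filter, 16 with TPM, 4 with the haemoglobin covariate and 3 with the leukocyte covariate, where the medians were -0.30 and -0.68 against -0.16 and -0.36 for all tested genes. Rsad2 passed as higher with TPM (log2 fold change 2.81), where 27.6% of all tested genes passed. Of those 3288 genes, 65 were higher after FeCl3 and 3223 lower.

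Signs turned for many members, and with the haemoglobin covariate also for those with the largest fold changes. Rsad2 and Ifit1 stayed positive with the leukocyte covariate, at 0.64 and 0.61. With TPM the log2 fold changes were -0.043 for Bst2, -0.33 Dtx3l, -0.46 Ifi35, -0.052 Ifit2, -0.28 Irf1, -0.54 Irf9, -0.40 Parp14, -0.30 Parp9 and -0.26 Xaf1. With array weights they were -0.13 for Dtx3l, -0.016 Ifi27, -0.046 Ifi35, -0.085 Ifit2, -0.13 Irf9, -0.16 Mx2 and -0.19 Parp14. With haemoglobin left out of the total they were 0.047 for Eif2ak2, 0.12 Ifih1, 0.17 Stat2 and 0.12 Trim25. With median-of-ratios scaling they were 0.091 for Ifih1, 0.11 Stat2 and 0.086 Trim25, with quantile normalization 0.078 for Stat2, with voom 0.12 for Trim25, and with a pseudocount of 0.01 it was 0.0067 for Trim25. With the 2 controls they were -0.45 for Ifi27, -0.083 Ifi35, -0.11 Irf9 and -0.14 Parp14. With the haemoglobin covariate they were -0.33 for Cmpk2, -0.27 Dhx58, -0.59 Dtx3l, -0.30 Gbp2, -0.13 Ifi27, -0.19 Ifi35, -0.55 Ifit1, -0.54 Ifit2, -0.65 Ifit3, -0.071 Irf1, -0.24 Irf7, -0.36 Irf8, -0.26 Irf9, -0.24 Isg15, -0.10 Mx1, -0.49 Mx2, -0.15 Oas1a, -0.57 Parp14, -0.30 Rsad2, -1.05 Samhd1 and -0.38 Xaf1. With the leukocyte covariate they were -0.095 for Bst2, -0.56 Cmpk2, -0.52 Dhx58, -0.96 Dtx3l, -1.01 Gbp2, -1.78 Ifi27, -0.61 Ifi35, -1.29 Ifit2, -1.01 Ifit3, -0.68 Irf1, -0.23 Irf7, -0.23 Irf8, -0.70 Irf9, -0.56 Isg15, -0.16 Mx1, -1.27 Mx2, -0.67 Oas1a, -1.23 Parp14, -0.27 Parp9, -1.14 Samhd1, -0.37 Usp18 and -0.68 Xaf1. With a library left out they ran from -0.18 to 0.45 for Dtx3l, -0.50 to 1.30 Ifi27, -0.14 to 0.40 Ifi35, -0.41 to 0.036 Ifih1, -0.22 to 0.88 Ifit2, -0.21 to 0.35 Irf9, -0.23 to 0.88 Mx2, -0.31 to 0.47 Parp14, -0.50 to 0.10 Stat2 and -0.78 to 0.38 Trim25. The cause of these changes was not tested.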

Other observations

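Neighbouring members did not keep 1 ratio across libraries. Rsad2 and Cmpk2 lie next to each other in RefSeq order, and the ratio of Rsad2 to Cmpk2 FPKM was 14.0, 15.9, 21.9 and 10.0 in FeCl3 replicates 1 to 4, against 6.82, 1.67, 1.03 and 11.0 in saline replicates 1 to 4. Saline replicates 1 to 3 lay below every FeCl3 library in this ratio and saline replicate 4 among them. The ratio of Mx1 to Mx2, which lie with 1 protein-coding gene between them, was 0.878, 0.325, 2.94 and 3.63 after FeCl3, against 3.29, 0.135, 0.129 and 0.689 after saline, in the order of replicates. Ifit1 stood apart from Ifit3 in saline replicate 1, where their ratio was 154, against 0.120 to 2.26 in the other controls and 2.30 to 8.35 after FeCl3; Ifit3 had only 4 fragments there. The ratio of Parp9 to the adjacent Dtx3l varied less, from 1.14 to 2.56 after FeCl3 and from 1.05 to 3.40 after saline. These ratios were chosen after values were seen and were not tested.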
